A study of Mus musculus with 24 samples.

Results

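The carnitine shuttle was described here through 9 genes read by 13 probes, each of 60 bases, on an oligonucleotide array. The genes encode the acyltransferases Cpt1a, Cpt1b, Cpt2, Crat and Crot, the carriers Slc25a20 and Slc22a5, and the carnitine synthesis enzymes Bbox1 and Tmlhe. Every non-control probe that carried one of these names was taken, 13 of 56605 probes. All 13 passed the filter on dim probes, and the 9 genes were among 21331 genes tested. The livers came from 24 male C57Bl/6J mice fed a standard diet freely, with 1 single-colour (Cy3) array per mouse. Of the 4 groups of 6 mice, LWT vehicle and LKO vehicle received 0.5% carboxymethyl cellulose by gavage, and the LWT and LKO groups labelled Beta3 received CL316243 at 3 mg/kg in the same carrier. Gavage was at Zeitgeber time (ZT, hours after lights on) 10, and all livers were taken at ZT 16. CL316243 is an agonist of the beta3 adrenergic receptor, which is known chiefly from adipocytes. The series title gives LWT as mice with, and LKO as mice without, PPARα in hepatocytes. The labels used here give neither the ages nor the driver and the deleted part of the Ppara gene.

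Long-chain fatty acids enter mitochondria as carnitine esters. CPT1 on the outer membrane makes the ester, the carrier encoded by Slc25a20 exchanges it across the inner membrane for free carnitine, and CPT2 on the inner side returns the fatty acid to coenzyme A. Crat and Crot make carnitine esters of short and medium acyl chains, which also move carbon out of peroxisomes. Slc22a5 encodes OCTN2, the carnitine importer of the plasma membrane, and Tmlhe and Bbox1 encode the first and the last enzyme of carnitine synthesis from trimethyllysine. PPARα is a nuclear receptor for fatty acids that controls much of fatty acid oxidation in liver. Cpt1a, Cpt2, Slc25a20 and Slc22a5 are known among its targets.

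Promoter sequence is shown for 4 members that span the route from carnitine import to the matrix and that moved in at least 1 comparison. Each run holds the 250 bases before the RefSeq gene start (build GRCm38.p6), on the strand of the gene. The positions are chr19:3323051-3323300 (plus strand) for Cpt1a, chr4:107923590-107923839 (minus strand) for Cpt2, chr9:108661886-108662135 (plus strand) for Slc25a20 and chr11:53891704-53891953 (minus strand) for Slc22a5. Capitals mark a nuclear receptor half-site, AGGTCA, read here on the opposite strand.
Cpt1a: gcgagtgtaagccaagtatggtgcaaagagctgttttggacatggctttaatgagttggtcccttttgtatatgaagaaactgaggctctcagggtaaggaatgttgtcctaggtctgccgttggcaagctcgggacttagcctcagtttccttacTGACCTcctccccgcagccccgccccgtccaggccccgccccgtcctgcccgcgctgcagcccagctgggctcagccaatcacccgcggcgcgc
Cpt2: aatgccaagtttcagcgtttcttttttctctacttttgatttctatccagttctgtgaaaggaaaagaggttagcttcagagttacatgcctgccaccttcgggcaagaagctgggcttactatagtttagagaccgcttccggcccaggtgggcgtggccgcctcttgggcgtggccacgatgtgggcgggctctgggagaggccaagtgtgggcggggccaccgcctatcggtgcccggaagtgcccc
Slc25a20: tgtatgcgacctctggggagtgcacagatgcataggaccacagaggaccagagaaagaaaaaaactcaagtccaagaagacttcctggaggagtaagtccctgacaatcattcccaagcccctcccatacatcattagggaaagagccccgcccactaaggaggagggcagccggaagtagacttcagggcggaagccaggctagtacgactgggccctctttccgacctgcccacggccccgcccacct
Slc22a5: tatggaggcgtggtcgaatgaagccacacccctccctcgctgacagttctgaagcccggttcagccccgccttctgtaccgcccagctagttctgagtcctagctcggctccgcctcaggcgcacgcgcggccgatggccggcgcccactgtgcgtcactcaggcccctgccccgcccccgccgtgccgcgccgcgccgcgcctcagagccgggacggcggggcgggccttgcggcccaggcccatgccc

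The promoter table held 6 of the 9 members (Cpt1a, Cpt2, Crot, Slc25a20, Slc22a5 and Bbox1). Both strands were searched for the half-site AGGTCA, for its direct repeat with 1 base between (AGGTCANAGGTCA, at most 2 mismatches) and for the cAMP response element TGACGTCA. The repeat is made of half-sites, but a match with mismatches need not hold an exact one. The only match in the 6 windows was the half-site in Cpt1a, 94 to 89 bases before the start. Among 32851 windows of the same length, 14% held the half-site, 3.24% the direct repeat and 1.55% the cAMP response element. These matches describe letters within 250 bases and no binding was measured.

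Levels are given as log2 of the background-subtracted intensity minus the 75th percentile of the same array, so that 0 is the 75th percentile. They compare mice for 1 probe and do not rank genes against each other. Where a gene had 2 probes, the brighter one stands for the gene. Differences come from a limma fit over all 21331 genes, with Benjamini-Hochberg adjusted p-values within each comparison, and a gene was called at an adjusted p under 0.05. All member probes were well above background on 24 of 24 arrays, except the dimmer Crat probe with 22 of 24, and none was saturated. Second probes were tested in a fit over all 32037 kept probes, where 37.6% were called in LWT, 41% in LKO, 5.96% for the difference between these effects, 1.11% between genotypes under vehicle and 15.4% under CL316243. The 75th percentile of intensity was 397.4 to 577.7, and 26985 to 34202 probes per array were well above background. All 8 hepatocyte markers (Alb, Ttr and others) were above background on every array. In liver tissue, fewer cells of a type and less RNA per cell cannot be told apart.

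The level of Ppara itself was compared first. Its brighter probe read 5.45 to 5.93 (median 5.66) in LWT vehicle, 5.70 to 6.42 (6.35) in LWT CL316243, 4.81 to 5.18 (5.01) in LKO vehicle and 3.06 to 4.85 (4.51) in LKO CL316243. Every LKO mouse lay below every LWT mouse of the same treatment. The difference was -1.91 ± 0.20 (SE) under CL316243 (adjusted p = 3.6e-07) and -0.68 ± 0.20 under vehicle (adjusted p = 0.158), where the second probe gave -0.92 ± 0.20 (adjusted p = 0.0188 over all probes). Ppara also changed with CL316243, by 0.55 ± 0.20 in LWT (limma, adjusted p = 0.0377) and -0.69 ± 0.20 in LKO (adjusted p = 0.0100), with overlapping groups. The LKO effect minus the LWT effect was -1.23 ± 0.29 (adjusted p = 0.0120). The second probe changed by 0.63 in LWT and -0.54 in LKO, both called. The part of these Ppara changes in the member changes was not tested. As the labels used here do not give the deleted part, these probes may lie outside it, and their signal alone does not check the genotype.

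CL316243 raised most of the shuttle in LWT liver. Of the 9 members, 7 were called higher, 0 lower and 2, the synthesis enzymes Bbox1 and Tmlhe, were not called. Of all genes tested, 38.3% were called in this comparison and 18.9% were called higher. The member changes had a median of 1.38, against 0.0092 over all genes. In all 7, the 6 treated mice lay above the 6 vehicle mice without overlap, which held in that direction for 10% of all genes.

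In LKO liver the same dose gave a different list. There 5 members were called, with Cpt1a, Cpt1b and Slc22a5 higher and Bbox1 and Tmlhe lower, while Cpt2, Crat, Crot and Slc25a20 were not called. Of all genes, 40.3% were called, 20.9% higher and 19.4% lower, so the share of members called lower was near that over all genes. Treated and vehicle mice did not overlap for these 5 members, as in 10.5% of all genes in the higher and 10.4% in the lower direction. The median member change was 0.29, against 0.027 over all genes. The difference between the 2 effects (LKO effect minus LWT effect) was called for 6 members, all of them smaller in LKO, against 5.41% of genes called and 3.24% called in that direction. Cpt1a, Bbox1 and Tmlhe were not among the 6.

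**Figure D1:**
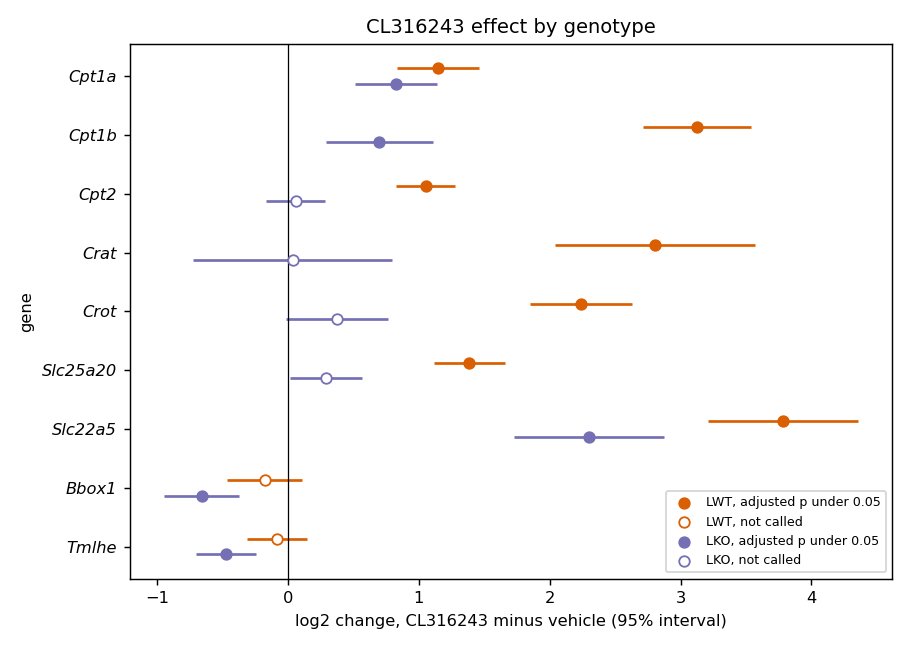
Log2 change from vehicle to CL316243 (x axis) for each gene (y axis), with its 95% interval, in LWT (orange) and LKO (violet) livers, 6 mice per group. Filled points passed an adjusted p of 0.05. The intervals of the 2 genotypes lie apart for Cpt1b, Cpt2, Crat, Crot, Slc25a20 and Slc22a5, and overlap for Cpt1a, Bbox1 and Tmlhe.

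**Figure D2:**
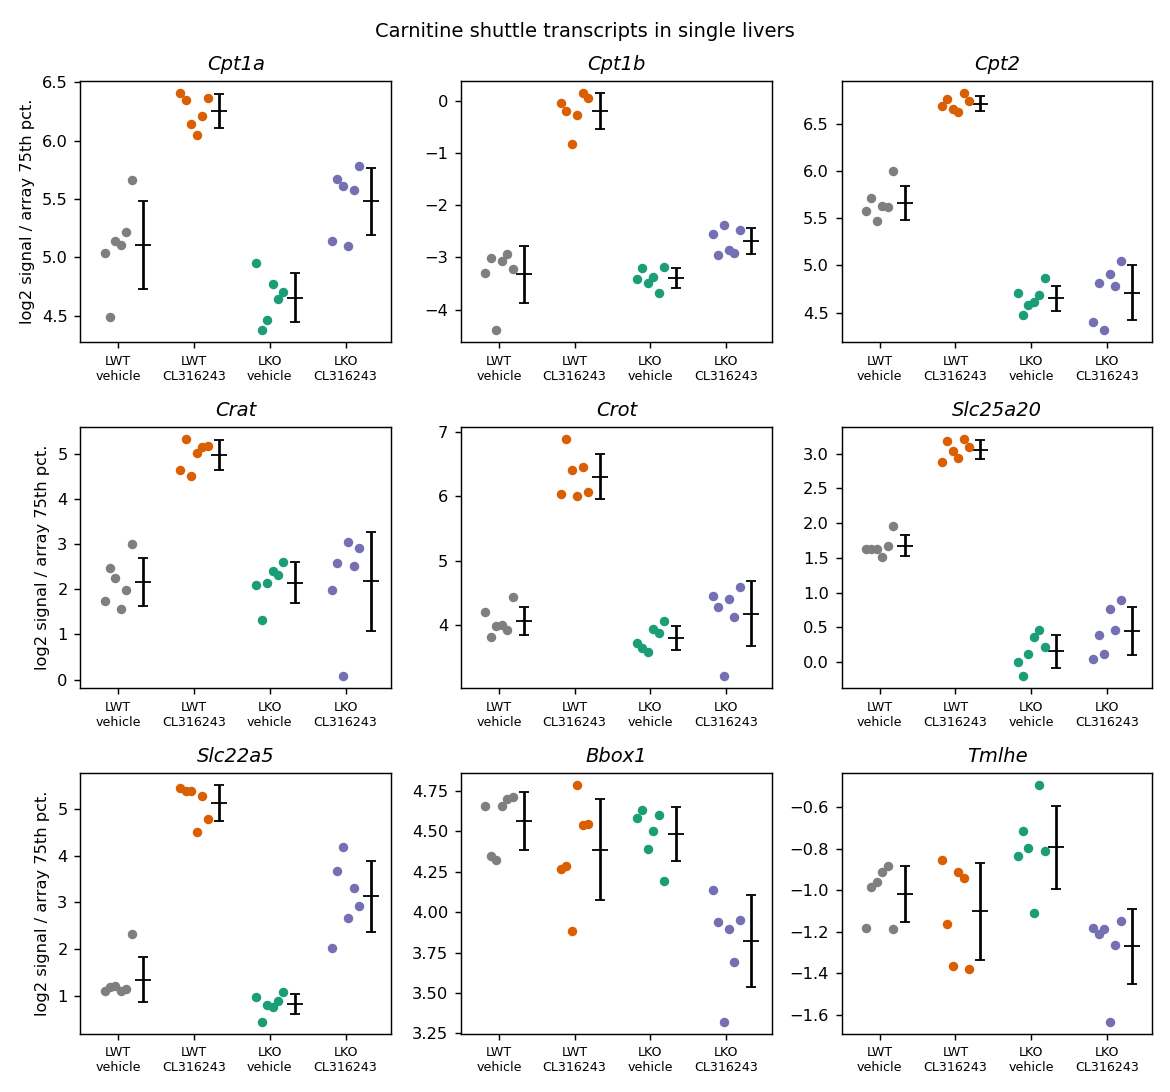
Level of each gene (log2 intensity minus the array's 75th percentile, own y axis per panel) in each of the 24 mice, with the mean and SD of each group of 6 in black. For Cpt2 and Slc25a20 the LKO mice lie below all LWT mice under either treatment, and for Crat a single LKO CL316243 mouse lies at 0.078.

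Cpt1a, the liver form of CPT1 and the step at which entry is controlled, rose in both genotypes. Its level ranged from 4.49 to 5.66 (median 5.12) in LWT vehicle, 6.05 to 6.41 (6.28) in LWT CL316243, 4.38 to 4.95 (4.67) in LKO vehicle and 5.10 to 5.78 (5.60) in LKO CL316243. Treated and vehicle mice did not overlap in either genotype. The change was 1.15 ± 0.15 in LWT, or 2.21-fold (adjusted p = 4.09e-06), and 0.83 ± 0.15 in LKO, or 1.77-fold (adjusted p = 0.000173). The LKO effect minus the LWT effect was -0.32, with a 95% interval of -0.76 to 0.12 (adjusted p = 0.473), an interval that also holds a difference of 0. Within the 3 slides it ran from -0.69 to 0.25. The array's annotation places the probe at chr19:3385374-3385433 (mm9).

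Cpt1b, the muscle form of CPT1, rose in both genotypes, with the larger change in LWT. It read -4.39 to -2.93 (median -3.15) in LWT vehicle, -0.83 to 0.14 (-0.13) in LWT CL316243, -3.67 to -3.17 (-3.39) in LKO vehicle and -2.96 to -2.39 (-2.70) in LKO CL316243. All LWT CL316243 mice stood above every other mouse. The change was 3.13 ± 0.20 in LWT, or 8.72-fold (adjusted p = 1.28e-10), and 0.70 ± 0.20 in LKO, or 1.62-fold (adjusted p = 0.00733). The LKO effect minus the LWT effect was -2.43 ± 0.28 (adjusted p = 7.2e-06). With normexp background correction the LWT change was 2.11 and the effect difference -1.71, and with the series table the LWT change was 2.38, all of them called. Over the alternatives other than leaving out 1 mouse, the LKO change ran from 0.38 to 0.70 (limma, adjusted p = 0.0012 to 0.026). The probe was dim outside LWT CL316243, with intensities of 27.5 to 65.1 in LWT vehicle, 42.4 to 57.4 in LKO vehicle and 58.4 to 79.0 in LKO CL316243. The probe (chr15:89246836-89246895, mm9) is also annotated to a read-through transcript of Chkb and Cpt1b, so that signals of the 2 transcripts cannot be told apart. Chkb, the neighbouring choline kinase gene, changed by 1.49 ± 0.088 in LWT and 0.58 ± 0.088 in LKO on its own probe, with an effect difference of -0.91 ± 0.12 (adjusted p = 4.94e-05 over all probes).

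Slc25a20, the exchanger of acylcarnitine for carnitine, differed between genotypes in every state. It read 1.52 to 1.96 (median 1.63) in LWT vehicle, 2.89 to 3.22 (3.07) in LWT CL316243, -0.20 to 0.46 (0.17) in LKO vehicle and 0.054 to 0.90 (0.43) in LKO CL316243. The order of the groups was LWT CL316243, LWT vehicle, then both LKO groups, which overlapped. CL316243 changed it by 1.38 ± 0.13 in LWT, or 2.61-fold (adjusted p = 4.32e-08), and by 0.29 ± 0.13 in LKO (adjusted p = 0.0832). The LKO effect minus the LWT effect was -1.09 ± 0.19 (adjusted p = 0.000635). Without LKO CL316243 mouse 3, the LKO change was 0.36 (adjusted p = 0.0381), without mouse 1 it was 0.37 (0.0270), and without LKO vehicle mouse 5 it was 0.35 (0.0448).

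Cpt2, which completes the transfer inside the mitochondrion, followed the same order. Its brighter probe read 5.47 to 6.00 (median 5.62) in LWT vehicle, 6.62 to 6.83 (6.71) in LWT CL316243, 4.47 to 4.86 (4.65) in LKO vehicle and 4.31 to 5.05 (4.80) in LKO CL316243. No LKO mouse reached the lowest LWT mouse on this probe. CL316243 changed it by 1.05 ± 0.11 in LWT, or 2.07-fold (adjusted p = 1.4e-07), and by 0.058 ± 0.11 in LKO, with a 95% interval of -0.17 to 0.28 (adjusted p = 0.699). The effect difference was -0.99 ± 0.15 (adjusted p = 0.000225). On the dimmer probe, the LKO change was -0.45 ± 0.17 and was called (adjusted p = 0.0403 over all probes), and the effect difference was -1.78 ± 0.24. There the LKO and LWT vehicle mice overlapped.

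The probe of Slc25a20, the member with the lowest adjusted p between genotypes under vehicle, and the dimmer probe of Crat are printed to show what was hybridised. Each is 60 bases long and written in the sense of the transcript, with no part in capitals. Slc25a20 lies at chr9:108585399-108585458 and Crat at chr2:30265479-30265538 (mm9). The longest run of bases that probes of different members shared was 12.
Slc25a20: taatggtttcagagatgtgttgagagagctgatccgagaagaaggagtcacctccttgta
Crat: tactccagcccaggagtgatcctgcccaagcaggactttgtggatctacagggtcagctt

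Crat, the acetyltransferase that makes acetylcarnitine, rose in LWT and was not called in LKO. Its brighter probe read 1.56 to 3.01 (median 2.11) in LWT vehicle, 4.51 to 5.33 (5.08) in LWT CL316243, 1.32 to 2.61 (2.23) in LKO vehicle and 0.078 to 3.04 (2.54) in LKO CL316243. All LWT CL316243 mice lay above every other mouse, and the other 3 groups overlapped. The change was 2.80 ± 0.37 in LWT, or 6.98-fold (adjusted p = 3.77e-06), and 0.034 ± 0.37 in LKO, with a 95% interval of -0.73 to 0.80 (adjusted p = 0.953). The effect difference was -2.77 ± 0.52 (adjusted p = 0.00187), and -2.54 ± 0.39 on the second probe (adjusted p = 0.000203 over all probes). Without LKO CL316243 mouse 3 and LWT vehicle mouse 6 it was -2.52 (adjusted p = 3.15e-05).

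Crot, the peroxisomal octanoyltransferase, read 3.82 to 4.43 (median 4.00) in LWT vehicle, 6.00 to 6.89 (6.23) in LWT CL316243, 3.58 to 4.07 (3.80) in LKO vehicle and 3.22 to 4.59 (4.35) in LKO CL316243. The LWT CL316243 mice again stood apart from the other 3 groups, which overlapped. The change was 2.24 ± 0.19 in LWT, or 4.72-fold (adjusted p = 7.06e-09), and 0.37 ± 0.19 in LKO (adjusted p = 0.119), with an effect difference of -1.87 ± 0.27 (adjusted p = 8.55e-05). Without LKO CL316243 mouse 3, the LKO change was 0.57 and passed the threshold (adjusted p = 0.00405). A second Crot probe is annotated to a separate Ensembl transcript and gave 2.88 ± 0.32 in LWT and 0.38 ± 0.32 in LKO, with an effect difference of -2.50 ± 0.45.

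Slc22a5, the carnitine importer, had the highest fold change of the members in both genotypes. It read 1.10 to 2.32 (median 1.17) in LWT vehicle, 4.50 to 5.44 (5.32) in LWT CL316243, 0.45 to 1.08 (0.85) in LKO vehicle and 2.04 to 4.17 (3.11) in LKO CL316243. The vehicle and treated ranges did not meet within a genotype. The change was 3.78 ± 0.28 in LWT, or 13.8-fold (adjusted p = 8.8e-10), and 2.30 ± 0.28 in LKO, or 4.93-fold (adjusted p = 1.75e-06). The effect difference was -1.48 ± 0.39 (adjusted p = 0.0266), and -2.00 ± 0.39 on the dimmer probe (adjusted p = 0.00238 over all probes). With no filter on dim probes its adjusted p was 0.0582. The 3 slides gave 0.10, -2.47 and -2.07, so the difference was not seen on slide 1. Without 1 mouse the effect difference was -1.69 to -1.26 (limma, adjusted p = 0.0042 to 0.0475). Without LKO CL316243 mouse 3 and LWT vehicle mouse 6, a pair on slide 1 chosen after seeing the data, it was -1.88 (adjusted p = 0.000503).

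**Figure D3:**
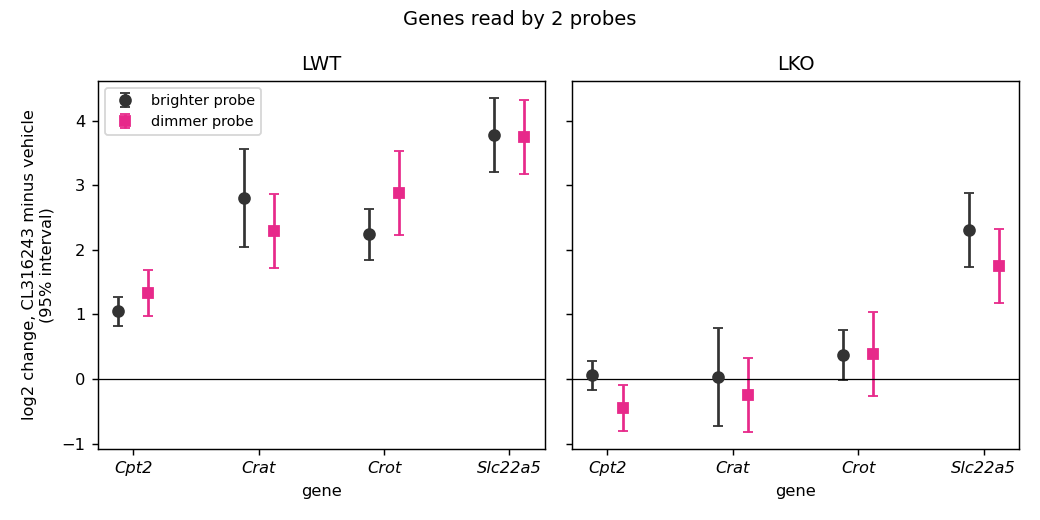
Log2 change from vehicle to CL316243 with its 95% interval (y axis) for the brighter (black) and dimmer (pink) probe of the 4 genes with 2 probes, in LWT (left) and LKO (right). In LWT both probes of each gene lie above 0, and in LKO the dimmer Cpt2 probe lies below 0 while the brighter one is at 0.058.

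The 2 enzymes of carnitine synthesis moved otherwise. Bbox1, which makes carnitine from butyrobetaine, read 4.32 to 4.71 (median 4.66) in LWT vehicle, 3.89 to 4.79 (4.41) in LWT CL316243, 4.19 to 4.63 (4.54) in LKO vehicle and 3.32 to 4.14 (3.92) in LKO CL316243. All LKO CL316243 mice lay below all LKO vehicle mice, while the LWT groups overlapped. Its change was -0.18 ± 0.14 in LWT (adjusted p = 0.328) and -0.66 ± 0.14 in LKO (adjusted p = 0.000618). The effect difference, -0.48 ± 0.20, was not called (adjusted p = 0.176).

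Tmlhe, which hydroxylates trimethyllysine, read -1.18 to -0.88 (median -0.97) in LWT vehicle, -1.38 to -0.85 (-1.05) in LWT CL316243, -1.11 to -0.49 (-0.80) in LKO vehicle and -1.63 to -1.15 (-1.20) in LKO CL316243. The LKO groups did not overlap and the LWT groups did. The change was -0.084 ± 0.11 in LWT (adjusted p = 0.589) and -0.48 ± 0.11 in LKO (adjusted p = 0.0015), an LKO change that did not pass a minimum of 1.5-fold, which 18.2% of all genes passed. The effect difference was -0.39 ± 0.16 (adjusted p = 0.163).

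Under vehicle, the genotypes differed in the inner-membrane steps. Of the 9 members, Cpt2 and Slc25a20 were called lower in LKO and 0 higher, against 1.18% of all genes called and 0.778% called lower. Cpt2 was lower by a log2 difference of -1.01 ± 0.11, or 2.02-fold (adjusted p = 2.75e-06), and Slc25a20 by -1.52 ± 0.13, or 2.86-fold (adjusted p = 9.4e-08). In both, all LKO vehicle mice lay below all LWT vehicle mice, as in 1.1% of all genes. The dimmer Cpt2 probe gave -0.61 ± 0.17 with overlapping groups and was not called (adjusted p = 0.111 over all probes).

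The other members did not pass under vehicle. Cpt1a differed by -0.45 ± 0.15 (adjusted p = 0.241), and without LWT vehicle mouse 2 by -0.58 (adjusted p = 0.0388). Slc22a5 differed by -0.52 ± 0.28 (adjusted p = 0.693), although its highest LKO value of 1.08 was below the lowest LWT value of 1.10. On its dimmer probe the difference was -0.15 ± 0.27 (limma, adjusted p = 0.976 over all probes) and the groups overlapped. The differences of Cpt1b, Crat, Crot, Bbox1 and Tmlhe lay between -0.26 and 0.22.

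Under CL316243, 8 of 9 members were called lower in LKO and Tmlhe was not called, against 15.9% of all genes called and 8.17% called lower. Each value is the sum of the difference under vehicle and the effect difference, and the comparison shares its mice with both. The differences were -2.79 ± 0.37 for Crat (6.90-fold), -2.61 ± 0.13 for Slc25a20 (6.11-fold), -2.49 ± 0.20 for Cpt1b (5.63-fold, or -1.75 with normexp background correction), -2.12 ± 0.19 for Crot (4.35-fold), -2.00 ± 0.11 for Cpt2 (4.01-fold) and -2.00 ± 0.28 for Slc22a5. Cpt1a differed by -0.77 ± 0.15 (adjusted p = 0.000833) and Bbox1 by -0.56 ± 0.14 (adjusted p = 0.00627), the latter with overlapping groups and not past a minimum of 1.5-fold, which 7.63% of all genes passed. In the other 7 called members the LKO and LWT mice did not overlap, as in 4.04% of all genes.

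**Figure D4:**
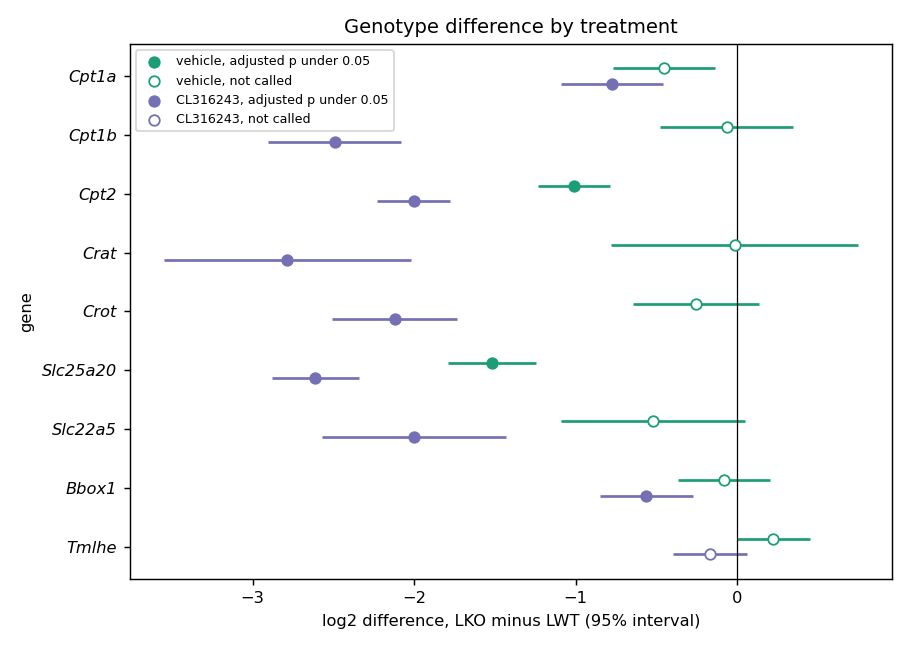
Log2 difference LKO minus LWT with its 95% interval (x axis) for each gene (y axis), under vehicle (green) and under CL316243 (violet), 6 mice per group. Filled points passed an adjusted p of 0.05: Cpt2 and Slc25a20 under vehicle, and every gene but Tmlhe under CL316243.

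All members called in the 4 comparisons between 2 groups had the same sign within each of the 3 slides, each slide holding 2 mice of every group. For the effect differences this held for 5 of 6, with Slc22a5 the exception given above. LKO CL316243 mouse 3 was the lowest of its group for Cpt2, Crat, Crot and Bbox1 and the highest for Cpt1b and Slc22a5, and it also had the lowest Ppara level, 3.06. LWT vehicle mouse 6 was the highest of its group for 7 of 9 members. Without these 2 mice, 7 members were called in LWT, 7 in LKO (Crot and Slc25a20 in addition) and 6 for the effect difference. Of all 21331 genes, 8491, 7775 and 1412 were then called in the same comparisons.

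The steps around the shuttle were described through 4 lists of pathway genes. The counts stand beside shares over all genes of 18.9% higher and 19.4% lower in LWT, 20.9% and 19.4% in LKO, 3.24% with a negative effect difference and 0.778% lower in LKO under vehicle. Of 16 mitochondrial beta-oxidation genes, which act on the fatty acids that the shuttle delivers, 14 rose and 1 fell with CL316243 in LWT, with a median change of 0.68. In LKO, 2 rose and 4 fell, with a median of -0.028, and the effect difference was called negative for 14 and positive for 0. Etfdh, which passes electrons from acyl-CoA dehydrogenases to ubiquinone, changed by 1.22 ± 0.068 in LWT (adjusted p = 2.17e-11) with an effect difference of -1.21 ± 0.10, and Eci2, an enoyl-CoA isomerase, by 1.28 ± 0.10 in LWT. Acsl1, the acyl-CoA synthetase that prepares fatty acids for CPT1, had an effect difference of -1.81 ± 0.28 (adjusted p = 0.00029). Echs1, the short-chain hydratase, fell by 0.29 in LWT (adjusted p = 0.0332). Under vehicle, 11 of the 16 were called lower in LKO and 0 higher.

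Peroxisomal beta-oxidation, which shortens very long chains before Crot and Crat export them, was more mixed. Of 14 genes, 9 rose and 3 fell in LWT, 1 rose and 4 fell in LKO, and 6 had a negative effect difference with 0 positive. The shares that fell in LWT and rose in LKO were near or below those over all genes given above. Ehhadh, the peroxisomal bifunctional enzyme, changed by 3.98 ± 0.14 in LWT (adjusted p = 3.35e-15) with an effect difference of -4.77 ± 0.19. Acaa1b, a thiolase, changed by 1.35 ± 0.20 with an effect difference of -1.69 ± 0.28. The transporter Abcd2, which carries acyl-CoA into peroxisomes, fell by 1.03 ± 0.38 in LWT (adjusted p = 0.0343). Its groups overlapped, and its mean levels were low, -2.87 under vehicle and -3.90 under CL316243.

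The other genes of carnitine synthesis and transport did not move as a block. Of 8, 3 rose and 3 fell in LWT, 2 rose and 4 fell in LKO, and 3 had a negative effect difference, against 38.3%, 40.3% and 3.24% of all genes called in LWT, in LKO and with a negative effect difference. Slc22a21, a carnitine transporter gene next to Slc22a5, changed by 3.28 ± 0.26 in LWT and 1.60 ± 0.26 in LKO, with an effect difference of -1.68 ± 0.37 (adjusted p = 0.00767). Slc22a4, an organic cation transporter of the same family, instead fell by 1.37 in LWT and 1.49 in LKO on its own probe. Slc16a9 rose by 0.56 ± 0.19 in LWT (adjusted p = 0.0226), Shmt1, a serine hydroxymethyltransferase, fell by 0.76, and Aldh9a1, which makes butyrobetaine, had an effect difference of -0.75 ± 0.14.

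Malonyl-CoA is the inhibitor of CPT1. Of 9 genes that set its level, 3 rose and 1 fell in LWT, 2 rose and 1 fell in LKO, and 1 had a negative effect difference. The shares called in LWT and LKO were near those of all genes, 38.3% and 40.3%. Mlycd, which degrades malonyl-CoA, changed by 0.68 ± 0.11 in LWT with an effect difference of -0.89 ± 0.15 (adjusted p = 0.000886). Acacb, which makes malonyl-CoA at the mitochondrion, rose by 0.85 ± 0.26 in LWT (adjusted p = 0.012), and Prkaa2, a catalytic subunit of AMP-activated kinase, fell by 0.66.

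**Figure D5:**
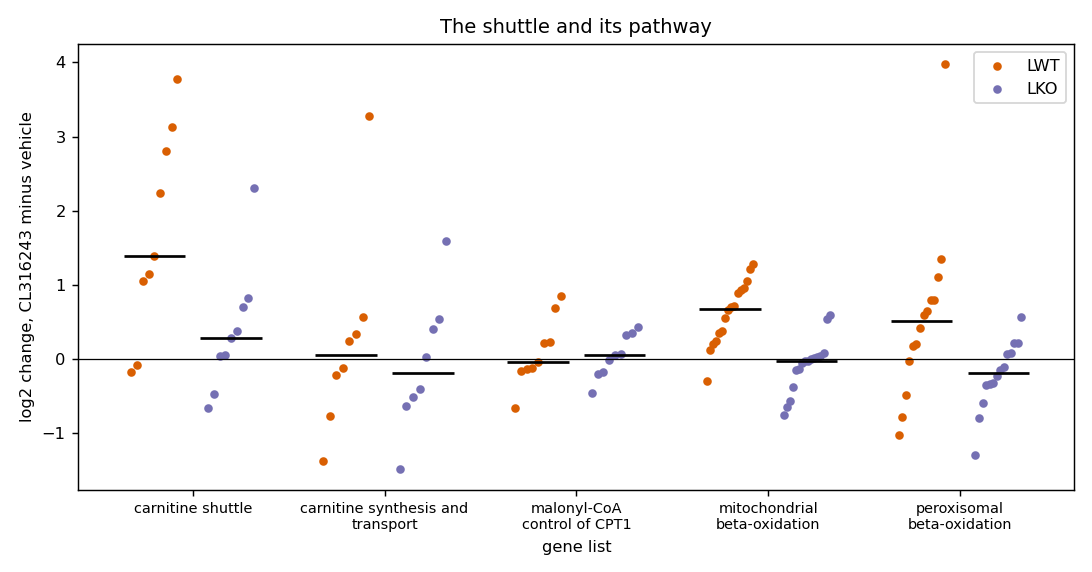
Log2 change from vehicle to CL316243 (y axis) for each tested gene of the shuttle and of 4 pathway lists (x axis), in LWT (orange) and LKO (violet), with the list median as a black bar. The shuttle medians are 1.38 and 0.29, and those of mitochondrial beta-oxidation 0.68 and -0.028.

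The genes whose levels followed Cpt1a, Cpt2 and Slc25a20 most closely were taken by Pearson correlation over the 24 arrays among 14041 named genes. The arrays share the 4 groups, so the values describe the pattern across groups. For Cpt1a they were Slc25a22, Agpat9 and Gsk3a, each with r = 0.94, and within groups 0.62, 0.55 and 0.73. For Cpt2 they were Etfdh (r = 0.98), Hsd17b4 (0.98) and Slc25a34 (0.98), and within groups 0.51, 0.66 and 0.70. For Slc25a20 they were Etfdh (0.98), Dhrs4 (0.98) and Ech1 (0.97), and within groups 0.21, 0.65 and 0.71.

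Markers of other cell types were summed per array, relative to the 75th percentile, and compared by exact two-sided permutation tests, adjusted over 28 tests. The sums used linear intensity, so bright genes weigh most, and single marker genes were not compared. Muscle markers bear on Cpt1b. Their sum was 0.45 to 1.25 in LWT vehicle, 0.47 to 0.92 in LWT CL316243, 0.45 to 0.66 in LKO vehicle and 0.47 to 1.04 in LKO CL316243, with a log2 difference of 0.043 in LWT (exact permutation, adjusted p = 0.943) and 0.29 in LKO (exact permutation, adjusted p = 0.424). Of the 9 muscle markers, Actn3 was above background on 0 of 24 arrays, Ckm on 1, Mb on 3, Acta1 on 11, Myl1 on 15, Myh6 on 19, Myh4 on 22, Tnni2 on 23 and Tnnt3 on 24. The sum of adipocyte markers fell with CL316243 by 1.10 in LWT and 1.07 in LKO (exact permutation, adjusted p = 0.0303 for each). This sum went from 2.15 to 4.24 down to 1.01 to 2.23 in LWT and from 2.38 to 4.06 down to 1.25 to 2.16 in LKO. Of the 7 adipocyte markers, Ucp1 was above background on 1 of 24 arrays, Adipoq on 6, Cfd on 17 and Retn on 22. Lep, Plin1 and Adrb3, the gene of the beta3 receptor, were above it on 24.

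Hepatocyte markers differed with CL316243 by 0.20 in LWT (exact permutation, adjusted p = 0.0303) and by 0.19 in LKO (exact permutation, adjusted p = 0.167). The sum of cholangiocyte markers differed by 1.22 in LKO (exact permutation, adjusted p = 0.0303), from 3.51 to 6.70 up to 7.08 to 14.1, and by 0.60 in LWT (exact permutation, adjusted p = 0.167). Of the 5 cholangiocyte markers, Krt7 was above background on 17 of 24 arrays, Epcam on 21, and Krt19, Sox9 and Spp1 on 24. The other tests of these lists and all tests of the Kupffer cell, endothelial and stellate lists gave adjusted p-values of 0.152 to 0.998 (exact permutation), those between genotypes included. The part of these shifts in the member changes was not tested.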

How the data were processed

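Liver RNA of 24 mice was hybridised to 24 single-colour arrays. Per the file headers, the deposited scanner tables hold linear intensities from which background had been subtracted, made by the authors in Feature Extraction 10.10.1.1. A series table of 31367 probes holds log2 values deposited by the authors, with its processing not given in the sources used here; its columns had medians of 8.081 to 8.085, correlated with the scanner values at r = 0.990 to 0.993, and served as an alternative.

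Spots flagged as outliers were removed, spots of a probe averaged, and each array's 75th percentile subtracted from log2 intensity. The filter asked for a probe to exceed background clearly in 4 or more of the 6 mice of any group and to have 3 or more values in each group, which 32037 of 56605 did, and the brightest kept probe represented its gene (21331). A model with 1 mean per group was fitted with limma 3.58.1 in R 4.3.3 and Benjamini-Hochberg adjustment within each of 5 comparisons. The scripts were tested on simulated data. Samples were grouped by the genotype and treatment labels. The members, lists and comparisons were chosen with earlier results of these data known. The text names all members and Ppara, and from each pathway list up to 2 called genes with the largest change in each direction, in LWT and for the effect difference, plus the 3 genes most like Cpt1a, Cpt2 and Slc25a20. Some items that this rule picks are not reported here. Chkb, Slc22a4 in LKO and the marker genes named were added for their position or cell type. Alternatives covered background correction, quantile normalization, the series table, filters, probe choice, slide, row and replicate blocks, a 1.5-fold minimum and leaving out each mouse. Leaving out 2 mice together and using the dimmer probe were chosen after seeing the data. Precision is limited by the 6 arrays per group, with a median standard error of 0.13 for a difference between groups and 0.19 for an effect difference.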

Additional observations from a re-analysis of the deposited data

Results flagged for a closer look

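In 6 of 36 sets of 6 mice (9 genes in 4 groups), 1 mouse lay far from the rest by Dixon's criterion, which chance meets in about 1 of 20 single sets. The 9 genes were read in the same mice, so the sets are not independent and this rate does not judge the count. LKO CL316243 mouse 3 was low for Crat, at 0.0782 against 1.98 for the nearest mouse, and for Crot, at 3.22 against 4.14. LWT vehicle mouse 6 was high for Slc25a20, at 1.96 against 1.68, and for Slc22a5, at 2.32 against 1.21. LWT vehicle mouse 3 was low for Cpt1b, at -4.39 against -3.29, and LKO CL316243 mouse 4 was low for Tmlhe, at -1.63 against -1.26.

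The effect of CL316243 differed between the genotypes by the limma test of the difference for 6 genes. The LKO effect minus the LWT effect was -2.43 for Cpt1b, -0.99 for Cpt2, -2.77 for Crat, -1.87 for Crot, -1.09 for Slc25a20 and -1.48 for Slc22a5.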

How the results depend on the processing

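The number of members called in each of the 5 comparisons stayed within 1.5 times of its value under every alternative run, except that the dimmer probes left 1 member, Slc25a20, lower in LKO under vehicle (Cpt2 -0.61, adjusted p = 0.109). The LKO change of Cpt2 became -0.20 with the mean of its probes, -0.45 with the dimmer probe and -0.0095 to 0.14 without 1 mouse (lowest without LKO CL316243 mouse 6). That of Crat became -0.11 with the mean of its probes, -0.25 with the dimmer probe, and -0.14 to 0.45 without 1 mouse, below 0 in 5 cases. The difference between genotypes under vehicle became 0.11 (mean of probes), 0.24 (dimmer probe), 0.15 (without 2 mice) and -0.14 to 0.15 (without 1 mouse) for Crat, -0.28 to 0.012 without 1 mouse for Cpt1b (above 0 without LWT vehicle mouse 5) and 0.0020 with the dimmer probe for Crot. None of these reversed values started from a call, and only that of Cpt2 on the dimmer probe was called; the cause was not tested. Over all genes, a minimum of 1.5-fold left 3801 of 8180 calls in LWT, 3885 of 8596 in LKO and 1627 of 3393 between genotypes under CL316243, where a fit to the 12 arrays compared left 2203. With no filter on dim probes 664 in place of 1153 effect differences were called, and the median change of all genes moved from 0.0092 to 0.11 in LWT. Mice with the same replicate number did not deviate together (36 pairs, r = -0.18 to 0.42, median 0.05), and the fit with the replicate number as a block gave the same counts of members called, 7 in LWT, 5 in LKO and 6 effect differences, with -1.48 for Slc22a5 (adjusted p = 0.032). In that fit 8309, 8688 and 1217 of all 21331 genes were called in the same comparisons. As a random block, slide had a correlation of -0.04 and changed the call of no member.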
